A study of Arabidopsis thaliana with 6 samples.

Results

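Seedlings of the monopteros mutant line mp-B4149 were set against GR-bdl seedlings in which the bdl fusion had not been induced, both after auxin. The comparison took 4 of the 6 ATH1 arrays of the series, 2 for each group, assigned by their labels. The mp seedlings had received 10 µM of the synthetic glucocorticoid dexamethasone (DEX) for 1 h and then 50 µM of the auxin indole-3-acetic acid (IAA) for 1 h. The GR-bdl seedlings carried pRPS5A-Myc-GR-bdl, a stabilised form of the repressor BODENLOS fused to a glucocorticoid receptor domain and driven by the RPS5A promoter, which is active in dividing cells. They had received 50 µM IAA for 1 h and no DEX, by their source label and the design text, although the labels' treatment text, shared by all samples, includes DEX. All were 9 days old and grown on half-strength medium with sucrose, and each array holds RNA of a pool of whole seedlings from 1 liquid culture. GR-bdl seedlings given DEX and IAA, on 2 further arrays, are quoted beside the comparison as values only. Line, DEX and the presence of a root all differed between mp and GR-bdl and cannot be told apart here, and the accession of each line was not given in the labels.

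Auxin acts through auxin response factors, transcription factors that Aux/IAA proteins hold back until auxin has them degraded. MONOPTEROS (MP) is the auxin response factor needed to form the embryonic root, and BODENLOS (BDL) is an Aux/IAA protein that binds it. Strong mp mutants lack a primary root and have reduced vasculature and fewer cotyledons, so that a seedling is mostly shoot. In the root, hair-forming epidermal cells are rich in class III peroxidases, extensins and expansins, secreted proteins that crosslink or loosen the wall. Anthocyanins are pigments of stressed or strongly lit shoots, made from dihydroflavonols by dihydroflavonol reductase and then decorated with sugars and acyl groups.

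The deposited gcRMA intensities were compared as log2 values, without the AFFX control probe sets. Of 22746 probe sets, 41.5% differed between mp and GR-bdl with IAA alone (limma on all 6 arrays, Benjamini-Hochberg adjusted p under 0.05, termed called below). Higher in mp were 5441 probe sets (23.9%) and lower were 3989 (17.5%), and 7.53% and 7.84% were higher and lower by at least 1 on the log2 scale. Counted by gene, with 1 probe set for each of 13355 genes, 22.6% rose and 15.5% fell, the shares beside which each list or family below is to be read. Both mp arrays lay above all 4 GR-bdl arrays at 35.6% of probe sets and below all 4 at 23.7%. No probe set was paired with MP or BDL in the annotation used here, so the labels were not checked on them. Arrays of 1 group correlated at 0.997 to 0.998 and mp arrays correlated with GR-bdl arrays at 0.942 to 0.945 across probe sets.

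The median of all differences was 0.12, and it was −0.19 once each array was set to a common level of its 18 hybridization controls, which themselves differed by a median of 0.33. That centring gave 2644 higher and 6984 lower probe sets, so that 27.5% of the calls were higher, against 57.7% as deposited. By gene, 10.5% rose and 28.2% fell under it. Small differences therefore carry no settled direction, and those below are read beside 0.12. Fits without 1 array, which leave 1 array in a group, called fewer of all genes both higher and lower. A loss of calls in a list or family in such a fit is to be read beside that general loss. Intensities under 4 on the log2 scale, 43.1 to 44.1% of each array, are called the low end of the range, where a difference has only a floor on 1 side.

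Large decreases outnumbered large increases. Called differences of at least 2 were higher at 473 probe sets and lower at 752. Differences of at least 4 were called higher at 81 and lower at 203, and differences of at least 6 at 16 and 64. The means lay above 8 in mp and under 4 in GR-bdl at 32 probe sets, while 99 lay under 4 in mp and above 8 in GR-bdl. Of the probe sets higher by at least 1, 1707 of 1712 had both mp arrays above all 4 GR-bdl arrays, and of those lower by at least 1, 1735 of 1784 had both below. On chromosomes 1 to 5 the share of genes that rose lay between 20.3 and 24.9%, and the share that fell between 14.7 and 16.5%.

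**Figure D1:**
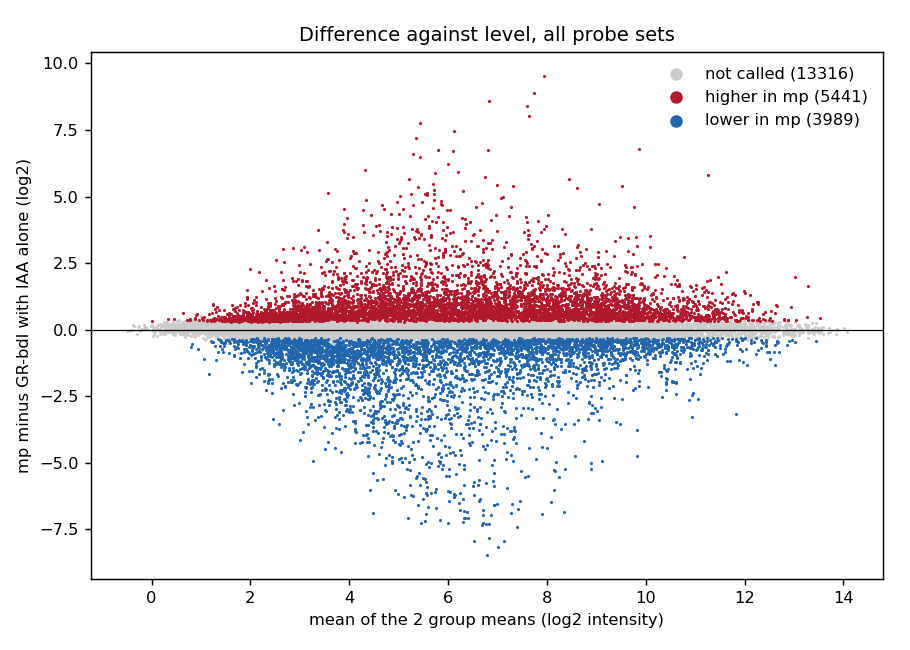
Difference between mp and GR-bdl with IAA alone (y, log2) against the mean of the 2 group means (x, log2 intensity), 1 point for each of 22746 probe sets, with called probe sets in colour. Decreases reach beyond −6 at more probe sets (64) than increases beyond 6 (16).

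The genes with the largest decreases had high intensities in GR-bdl and low ones, mostly under 4, in mp. AT2G25450, on the list of glucosinolate genes, stood at 2.54 and 2.57 in mp and 10.98 and 11.02 in GR-bdl, a difference of −8.45 ± 0.11 (SE, n = 2 per group) with a limma adjusted p of 1.03e-08. AT4G16260 stood at 3.76 and 3.63 in mp and 11.09 and 11.12 in GR-bdl (−7.41 ± 0.11). SBT4.12, which encodes a secreted serine protease of the subtilase family, stood at 1.83 and 1.81 in mp and 8.96 and 9.23 in GR-bdl (−7.27 ± 0.12). The 12 largest decreases spanned −8.45 to −6.94, and 4 of the 12 genes, AT4G26010, AT4G30170, AT3G01190 and AT2G37130, are class III peroxidases. DEX-treated GR-bdl arrays stood with the other GR-bdl arrays at each of these 12 genes, for example at 11.28 and 11.17 for AT2G25450.

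Most of the genes with the largest increases had intensities under 4 in GR-bdl. AT4G17470 stood at 11.02 and 11.24 in mp and 2.56 and 2.52 in GR-bdl (8.59 ± 0.12, limma adjusted p = 1.03e-08). AT2G47780 stood at 11.75 and 11.84 in mp and 3.32 and 3.48 in GR-bdl (8.39 ± 0.15), and AT1G48660 at 8.80 and 9.09 in mp and 1.77 and 1.71 in GR-bdl (7.21 ± 0.14). The annotation used here gives no function for these 3 loci. ICL, which encodes the isocitrate lyase of the glyoxylate cycle, differed from them in that it was already well expressed in GR-bdl. Its intensity was 14.12 and 14.19 in mp, the higher of them the highest value of any probe set on the 6 arrays, and 8.51 and 8.22 in GR-bdl, a difference of 5.79 ± 0.16 with a limma adjusted p of 6.01e-08. DEX-treated GR-bdl arrays held ICL at 9.05 and 8.67.

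**Figure D2:**
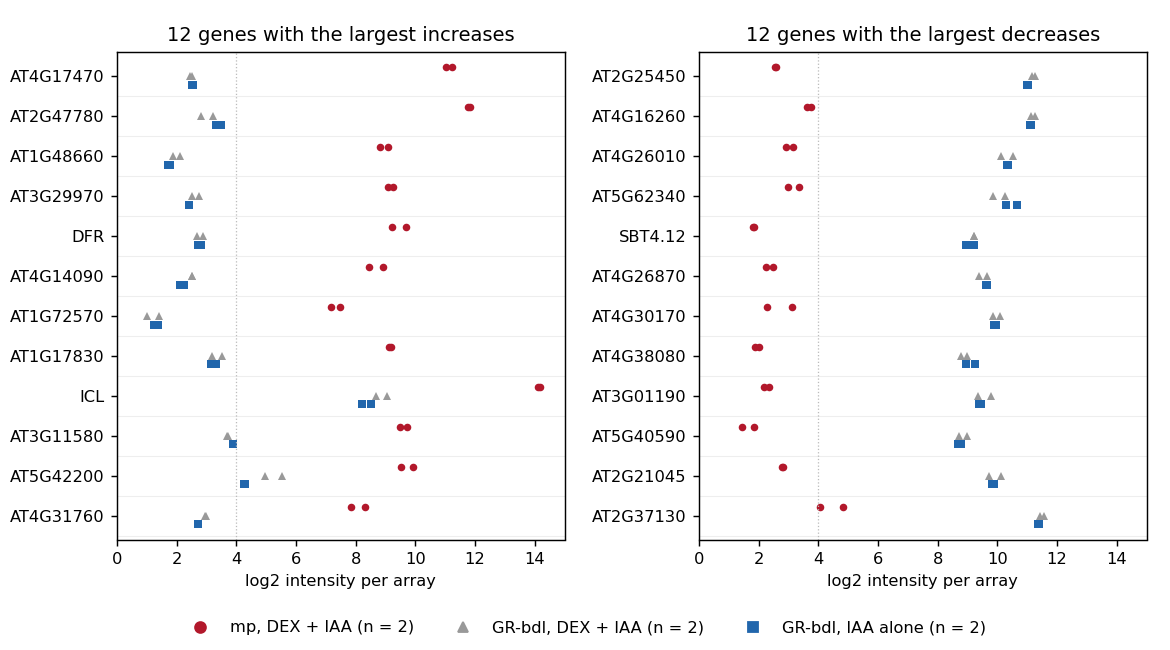
Log2 intensity of each array (x) for the 12 genes with the largest increases (left) and decreases (right) in mp, with mp arrays as circles, DEX-treated GR-bdl arrays as triangles and GR-bdl arrays with IAA alone as squares. A dotted line marks 4, the low end of the range. Genes were chosen among calls whose mp arrays did not overlap the GR-bdl arrays with IAA alone. No mp point overlaps a point of DEX-treated GR-bdl either.

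Root marker genes were low in mp. All 6 measured genes of the root hair list, of 39 listed, fell, with a median difference of −4.38 against 0.12 over all genes. The peroxidase gene AT4G26010 stood at 2.91 and 3.13 in mp and 10.33 and 10.36 in GR-bdl, and AT1G30870 at 2.68 and 2.68 in mp and 8.73 and 8.84 in GR-bdl. EXPA7, an expansin gene of root hairs, stood at 3.54 and 3.76 in mp and 7.22 and 7.68 in GR-bdl (−3.80 ± 0.22), and EXPA18, its close relative, fell by 2.89 ± 0.25. XTH26, a xyloglucan endotransglucosylase gene of root hairs, fell by 1.51 ± 0.20 within the low end of the range. All 6 ended under 4 in mp. AT1G61590, of the Casparian strip and suberin list, stood at 2.95 and 2.86 in mp and 5.95 and 5.89 in GR-bdl, whereas GSO1, a receptor kinase gene of the same list that is also used in the embryo, was not called (0.20 ± 0.16). JKD, a zinc finger gene of root radial patterning, stood at 3.20 and 3.13 in mp and 4.94 and 4.42 in GR-bdl.

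Summed over the 9 measured root markers, intensity was 102 and 105 in the mp arrays, against 1878 and 2520 in DEX-treated GR-bdl and 2290 and 2375 in GR-bdl with IAA alone. Of the 9 markers 8 fell and 1 was not called, and the GR-bdl sums were dominated by the peroxidase genes AT4G26010 and AT1G30870. The 13 measured shoot markers, dominated by photosynthesis genes, summed to 50600 and 48233 in mp, 52545 and 50500 in DEX-treated GR-bdl and 50496 and 50232 in GR-bdl with IAA alone. The root sums thus differed many-fold, while the shoot sums of mp lay within or just below the range of the GR-bdl arrays. In whole seedlings, fewer cells of a type and less RNA per cell cannot be told apart.

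Genes of lateral root initiation were low too, with all mp arrays under 5. LBD29, a LOB-domain factor gene that auxin induces in the pericycle, stood at 2.24 and 1.77 in mp and 4.68 and 5.37 in GR-bdl (−3.02 ± 0.24). LBD16, which acts beside it, stood at 3.86 and 4.56 in mp and 5.87 and 5.49 in GR-bdl (−1.47 ± 0.22). DEX-treated GR-bdl arrays lay between, at 3.60 and 3.91 for LBD29, and inside the range of mp, at 4.12 and 4.08, for LBD16. PUCHI, the remaining measured gene of the list, was called at −0.44 ± 0.15 (limma adjusted p = 0.0463) but not without either mp array or without GR-bdl array 1 (0.072 to 0.322), nor after centring on array medians (0.0598), on the 4 arrays alone (0.0573) or with log2(value + 16) (0.127).

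Class III peroxidases, with 55 measured genes the largest of the families set by locus or symbol after plastid-encoded genes, mostly fell. Of 55 measured genes (73 listed, 3 of them also among the measured root hair genes), 33 fell, 7 rose and 15 were not called, which is 60.0% lower against 15.5% of all genes, and the median difference was −1.51. Of the 19 genes whose mean in GR-bdl was above 8, 17 fell, AT1G71695 rose by 0.63 ± 0.13 and PRXR1 was not called (12.38 and 12.38 in mp, 12.27 and 12.34 in GR-bdl). Of the 33 that fell, 30 fell by at least 1, 24 ended under 4 in mp and 32 had both mp arrays below all 4 GR-bdl arrays. That order held at 97.3% of all probe sets lower by at least 1. AT5G66390, annotated as PRX72, stood at 2.49 and 1.82 in mp and 8.24 and 8.49 in GR-bdl (−6.21 ± 0.21). AT5G64120, annotated as PRX71, stayed higher, at 4.95 and 6.05 in mp and 10.83 and 10.78 in GR-bdl (−5.31 ± 0.29), and the 2 mp arrays differed by more than 1 on the log2 scale. AT5G64100 likewise kept 6.88 and 8.01 in mp, against 12.22 and 12.18 in GR-bdl.

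AT4G31760 went far in the other direction. This peroxidase gene stood at 7.83 and 8.30 in mp and 2.71 and 2.70 in GR-bdl (5.36 ± 0.15, limma adjusted p = 8.18e-08), with 2.97 and 2.96 in DEX-treated GR-bdl. The other 6 increases were of 1.44 or less, and 4 of them lay under 4 in both groups. Without mp array 1, GR-bdl array 1 or GR-bdl array 2, 4 peroxidase genes instead of 7 were called higher, and after centring on the hybridization controls 3 were. Summed over the 55 genes, peroxidase intensity was 8169 and 8720 in mp, 26475 and 27946 in DEX-treated GR-bdl and 25884 and 26308 in GR-bdl with IAA alone.

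**Figure D3:**
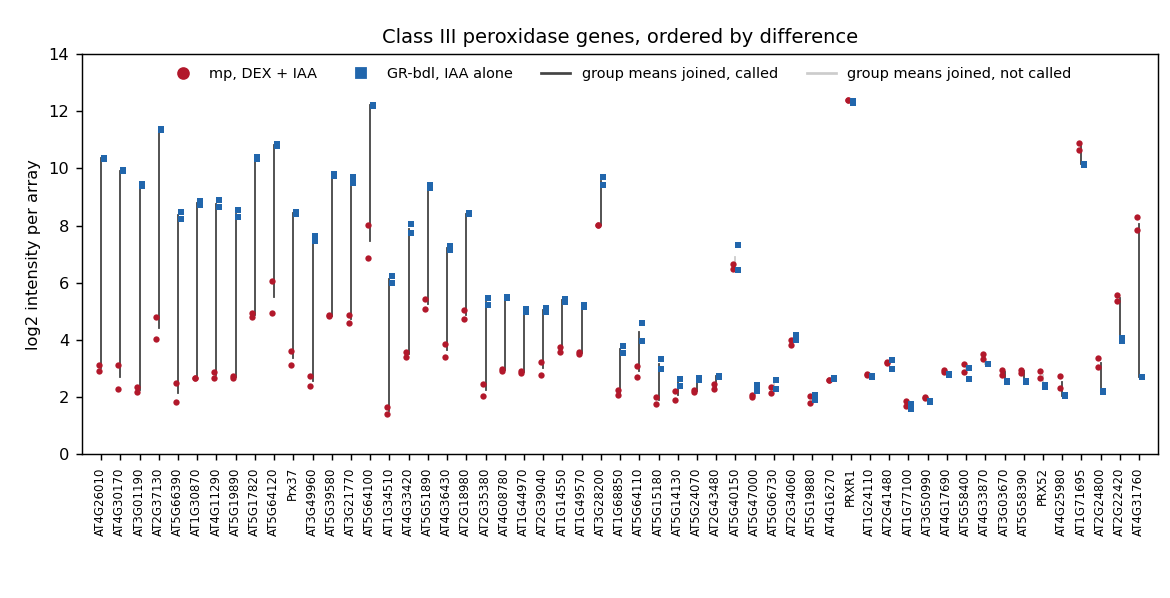
Log2 intensity (y) of the 55 measured class III peroxidase genes (x, ordered by difference) in mp (circles) and GR-bdl with IAA alone (squares), 2 arrays each, with a line joining the group means, dark where called. The 33 genes that fell run from −7.32 to −0.36, and AT4G31760 stands alone at the right with a rise of 5.36.

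Other cell wall families fell in part. Of 11 measured extensins, rod-like wall proteins that peroxidases crosslink, 8 fell (72.7%) and 3 were not called, with a median difference of −2.69. HRGP1 stood at 5.51 and 5.50 in mp and 10.79 and 10.80 in GR-bdl (−5.29 ± 0.21), and AT5G06630 at 5.41 and 5.30 in mp and 9.36 and 8.98 in GR-bdl. Extensin repeats are near-identical between copies. The probe sets of HRGP1 and AT5G06630 are marked by their names as able to read several genes, so the 8 decreases may not be separate measurements. Of 10 xyloglucan endotransglucosylases, which cut and rejoin the hemicellulose tether, 7 fell (70.0%), 2 rose and 1 was not called. XTH33 fell by 1.73 ± 0.16, while XTH32 stood at 9.87 and 9.84 in mp and 7.23 and 7.75 in GR-bdl (2.37 ± 0.22), and was called whichever of the 4 arrays was left out. The other increase of the family lost its call without any 1 of them.

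Expansins split by member: 8 of 18 fell, 3 rose and 7 were not called. EXPA9 fell by 2.97 ± 0.19 and EXLA1, of the expansin-like A branch, stood at 6.04 and 6.06 in mp and 8.97 and 9.03 in GR-bdl (−2.95 ± 0.12). EXPA20 rose by 3.47 ± 0.25, with 6.34 and 7.24 in mp and 3.24 and 3.40 in GR-bdl. Of 22 TBL genes, which acetylate wall polysaccharides, 8 fell and 3 rose, led by TBL38 (−3.01 ± 0.15) and, upward, TBL26 (1.95 ± 0.16). Of 15 GH9 endoglucanases 4 fell, led by GH9C1 (−3.20 ± 0.15), a gene with 2.81 and 2.93 in mp and 5.92 and 6.23 in GR-bdl, and 1 rose. Of 14 dirigent proteins, which steer the coupling of lignans and lignin, 6 fell and 2 rose. AT4G13580 stood at 3.98 and 3.40 in mp and 8.60 and 8.89 in GR-bdl, and AT1G55210 was the larger increase (0.95 ± 0.21). Without mp array 1, GR-bdl array 1 or GR-bdl array 2, or after centring on the hybridization controls, 1 dirigent gene was called higher.

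**Figure D4:**
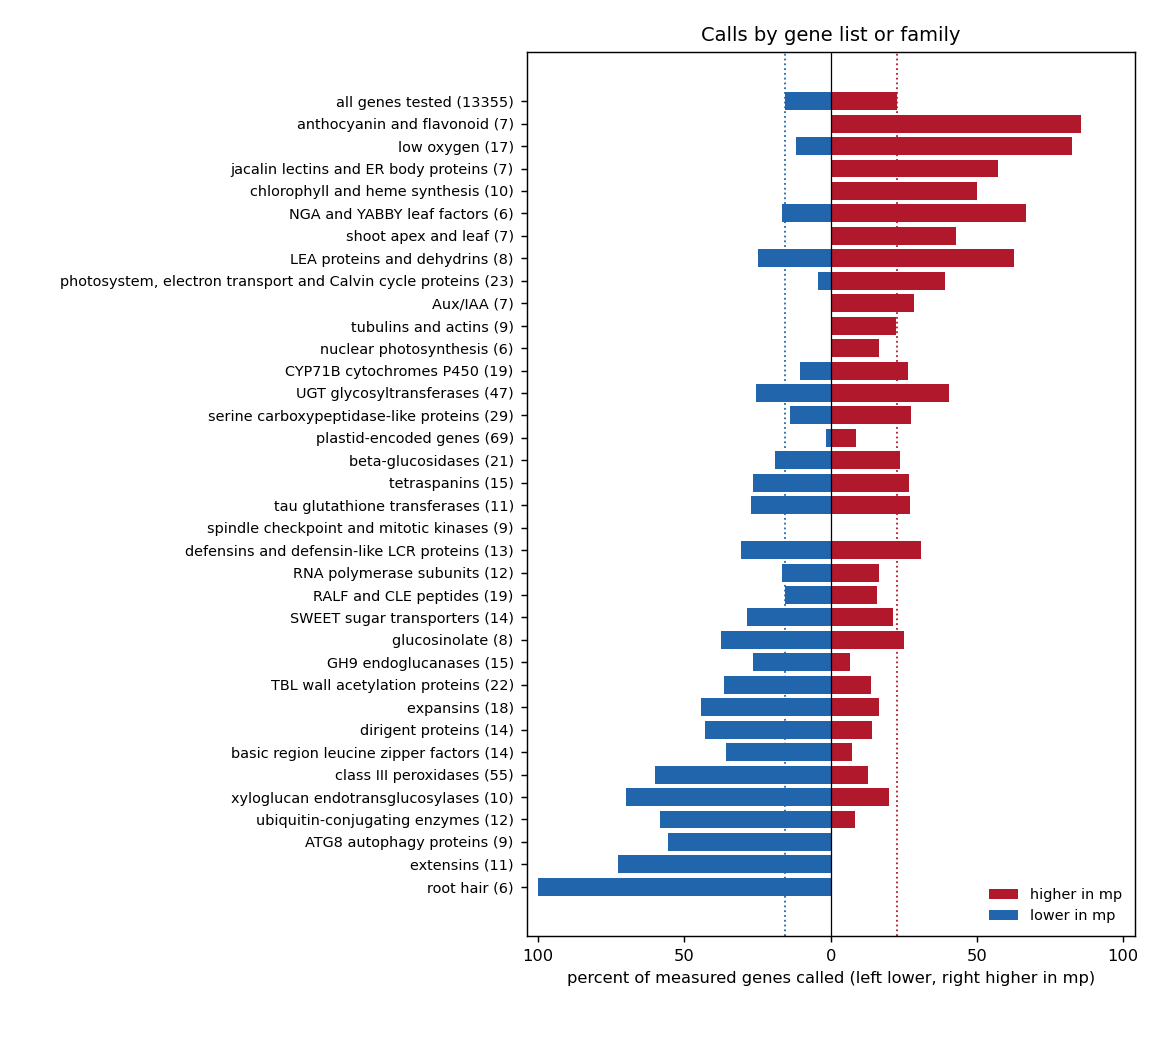
Percent of measured genes called higher (right) or lower (left) in mp, for each gene list or family with at least 6 measured genes (number in parentheses), lists chosen after values had been seen left out, and for all 13355 genes at the top, whose shares (22.6 and 15.5%) are drawn as dotted lines. Anthocyanin (85.7%) and low oxygen genes (82.4%) have bars far to the right, and root hair genes (100%), extensins (72.7%), xyloglucan endotransglucosylases (70.0%) and peroxidases (60.0%) far to the left.

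Late genes of anthocyanin synthesis were high in mp. Of 7 measured genes of the flavonoid list (32 listed) 6 rose, by 3.65 to 6.70, which is 85.7% against 22.6% of all genes. DFR, which encodes dihydroflavonol reductase, stood at 9.22 and 9.68 in mp and 2.81 and 2.70 in GR-bdl. UGT78D2, which encodes a glucosyltransferase of flavonols and anthocyanidins, stood at 9.60 and 9.80 in mp and 6.13 and 5.98 in GR-bdl (3.65 ± 0.12), and was the 1 gene of the 6 with a GR-bdl mean above 4. UF3GT, of the xylosyl step, stood at 6.48 and 7.28 in mp and 3.13 and 2.96 in GR-bdl (3.83 ± 0.23). AT5MAT, which encodes the malonyltransferase, was the most variable, at 5.85 and 7.35 in mp and 2.36 and 2.23 in GR-bdl (4.31 ± 0.39). AT4G14090 rose by 6.49 ± 0.15 and UGT78D1, of flavonol rhamnosylation, by 3.69 ± 0.13. At 5 of the 6 genes mp array 2 was the higher mp array.

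BAN, which encodes the reductase that draws the same intermediates into seed-coat tannins, was not called, at 3.02 and 3.15 in mp and 2.79 and 2.83 in GR-bdl. The rise thus covered the measured genes of the anthocyanin and flavonol branch. As BAN, the 1 measured gene of the tannin branch, lay within the low end in both groups, its lack of a call says little about that branch. Summed over the 7 genes, intensity was 2031 and 2666 in mp, 132 and 132 in DEX-treated GR-bdl and 113 and 106 in GR-bdl with IAA alone. On a list of 47 measured UGT sugar transferase genes, set by locus or symbol, 19 rose, 12 fell and 16 were not called. The largest rise on that list was 3.69, so AT4G14090 and UF3GT, which rose by more, are not on it. Under the centring on hybridization controls 14 of the 47 rose and 14 fell. Besides UGT78D1 and UGT78D2, UGT76E11 rose by 3.16 ± 0.24, and UGT76B1, which glucosylates isoleucic acid, stood at 3.30 and 3.81 in mp and 7.46 and 7.94 in GR-bdl (−4.15 ± 0.20).

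Genes induced by low oxygen were high in mp. Of 17 measured genes of that list (37 listed) 14 rose, 2 fell and 1 was not called, which is 82.4% higher against 22.6% of all genes, with a median difference of 1.18. All 14, of which 11 rose by at least 1, had both mp arrays above all 4 GR-bdl arrays. Of all probe sets higher by at least 1, 99.7% had that order. A GR-bdl mean above 8 was found for 9 of the 14. AT3G29970 rose furthest, at 9.09 and 9.24 in mp and 2.41 and 2.41 in GR-bdl (6.75 ± 0.12, limma adjusted p = 1.38e-08). CML38, which encodes a calmodulin-like protein of stress granules, stood at 10.12 and 10.10 in mp and 7.96 and 7.46 in GR-bdl (2.40 ± 0.21). AT3G10040, annotated as HRA1, a factor that damps the low oxygen response, stood at 10.33 and 10.31 in mp and 9.69 and 9.44 in GR-bdl (0.75 ± 0.14).

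Most of these genes were thus already well expressed in GR-bdl. AT5G10040 stood at 10.26 and 10.14 in mp, whereas its GR-bdl arrays lay far apart, at 7.09 and 5.75 with IAA alone and 6.18 and 7.31 with DEX. AT2G17850 likewise stood at 11.69 and 11.58 in mp and 9.13 and 7.97 in GR-bdl. The gap between the GR-bdl arrays ran through the list, since array 1 was above array 2 at 16 of the 17 genes, by a median of 0.43, against 50.1% of all genes and a median of 0.00. Without GR-bdl array 1 15 genes of the list were called higher, and without array 2 13 were. The 2 decreases were AT4G39675, at 6.75 and 7.87 in mp and 10.17 and 9.56 in GR-bdl (−2.56 ± 0.33), and AT1G19530 (−1.78 ± 0.18). AT4G33560 was not called (0.27 ± 0.18), but was called higher without GR-bdl array 1 (limma adjusted p = 0.0266). All cultures were shaken in liquid medium for both treatments, and no measure of oxygen was given in the labels.

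**Figure D5:**
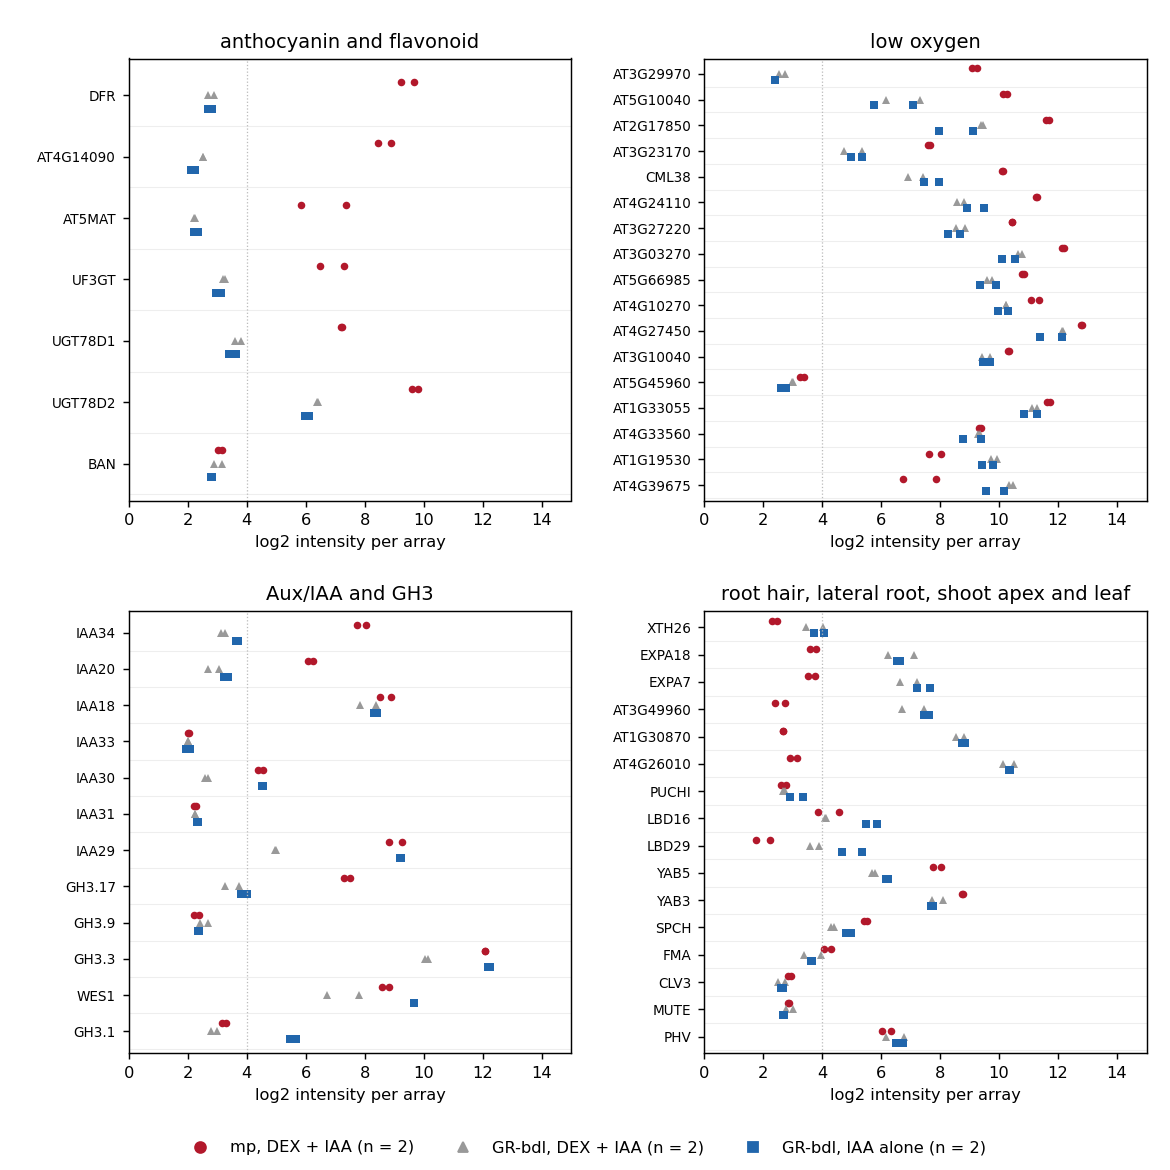
Log2 intensity of each array (x) for the measured genes of the anthocyanin, low oxygen, auxin (Aux/IAA and GH3), root hair, lateral root and shoot lists, with mp arrays as circles, DEX-treated GR-bdl arrays as triangles and GR-bdl arrays with IAA alone as squares. mp points stand clear to the right for 6 anthocyanin and 14 low oxygen genes and to the left for root hair genes, and IAA29 and GH3.3 lie with GR-bdl with IAA alone.

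Auxin-responsive genes went in both directions. Of 7 measured Aux/IAA genes, which encode the repressors of auxin response and are mostly induced by auxin themselves, 2 rose and 5 were not called, so that the share that rose (28.6%) was near that of all genes. IAA34 stood at 8.06 and 7.73 in mp and 3.64 and 3.71 in GR-bdl (4.22 ± 0.14), and IAA20, which encodes an Aux/IAA protein without the degradation motif, at 6.23 and 6.07 in mp and 3.35 and 3.24 in GR-bdl (2.86 ± 0.15). IAA29 was not called, at 9.25 and 8.83 in mp and 9.18 and 9.21 in GR-bdl, while DEX-treated GR-bdl arrays stood at 4.94 and 4.98. IAA30 showed the same order, at 4.37 and 4.55 in mp, 2.68 and 2.60 in DEX-treated GR-bdl and 4.53 and 4.56 in GR-bdl with IAA alone. After centring on the hybridization controls 3 of the 7 were called lower, among them IAA29 (−0.47).

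GH3 genes encode enzymes that couple auxin or jasmonate to amino acids. The 5 measured genes of the GH3 list, of 9 listed, differed member by member, and loci outside that list were not counted here. GH3.17 stood at 7.49 and 7.31 in mp and 4.02 and 3.80 in GR-bdl (3.49 ± 0.17), with 3.74 and 3.26 in DEX-treated GR-bdl. GH3.1 stood at 3.31 and 3.17 in mp, 2.78 and 3.01 in DEX-treated GR-bdl and 5.47 and 5.66 in GR-bdl with IAA alone (−2.32 ± 0.13). GH3.3, the most abundant of the 5, was not called, at 12.06 and 12.09 in mp and 12.18 and 12.24 in GR-bdl, with 10.15 and 10.03 in DEX-treated GR-bdl. After centring on the hybridization controls GH3.3 was called lower (−0.45, limma adjusted p = 0.0204). WES1, also named GH3.5, fell by 0.98 ± 0.30 (limma adjusted p = 0.0301) and lost its call without any 1 of the 4 arrays (0.0695 to 0.135). GH3.9 was not called and lay near the low end.

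The remaining auxin genes measured moved little. WAG2, a kinase gene of auxin transport, stood at 6.83 and 6.68 in mp and 7.16 and 7.26 in GR-bdl (−0.45 ± 0.21, limma adjusted p = 0.119). WAG2 was called lower in the fit of the 4 arrays alone (0.0150) and after centring on the hybridization controls (−0.76, 0.0157). LHW, which encodes a vascular transcription factor partner, was not called, at 7.82 and 7.78 in mp and 7.84 and 7.88 in GR-bdl, and AT5G66940, on the list of genes placed downstream of MP, differed by −0.52 ± 0.17 and lost its call without either mp array or GR-bdl array 1 (limma adjusted p = 0.116 to 0.292). The 4 measured YUC genes of auxin synthesis lay near or within the low end, with YUC4 called at 0.39 ± 0.13, a call lost without any 1 of the 4 arrays. RR16, a cytokinin response regulator gene, stood at 2.44 and 1.94 in mp and 4.68 and 4.54 in GR-bdl, and reached 6.79 and 5.89 in DEX-treated GR-bdl.

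Shoot genes shifted by less than root genes. Of 6 measured nuclear photosynthesis genes, RCA (13.35 and 13.26 in mp, 13.49 and 13.49 in GR-bdl) and 4 others were not called. RCA (−0.18) and LHCB4.1 (−0.17) of these were called lower with log2(value + 16) and with the trend and robust eBayes settings. SBPASE was called at 0.31 ± 0.11, but its difference was 0.001 under the centring on hybridization controls, which called 3 of the 6 lower. SBPASE also lost its call without any 1 of the 4 arrays (limma adjusted p = 0.102 to 0.224). Of 23 nuclear genes of the photosystems, electron transport and the Calvin cycle, 9 rose, 1 fell and 13 were not called, and after that centring 3 rose and 5 fell. Without mp array 1 or GR-bdl array 2, 5 were called higher. LHCB4.3, a minor antenna gene of photosystem II, stood at 9.23 and 9.06 in mp and 7.09 and 7.08 in GR-bdl (2.06 ± 0.15), whereas its relative LHCB4.1 was not called (−0.17 ± 0.10). CaS, which encodes a thylakoid calcium-linked protein, rose by 1.16 ± 0.13. Of 10 genes of chlorophyll and heme synthesis 5 rose and 5 were not called, with 1 called higher after that centring and 3 without mp array 1, GR-bdl array 1 or GR-bdl array 2. PORB, a protochlorophyllide reductase gene, stood at 13.51 and 13.24 in mp and 12.57 and 12.45 in GR-bdl (0.86 ± 0.15).

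Of 69 plastid-encoded genes 6 rose, 1 fell and 62 were not called, which is 8.70% higher. Their median difference was 0.26, against 0.12 over all genes, so the low share of calls does not mean a smaller shift. That count depended on how the spread was estimated, since 23 rose and 3 fell in a fit of the 4 arrays alone, in which 24.2% of all genes rose, and 12 rose with the trend and robust eBayes settings. psbN, of photosystem II assembly, rose by 1.41 ± 0.32 but not without mp array 1 (limma adjusted p = 0.0567). After centring on the hybridization controls 5 rose and 9 fell. STOMAGEN, a peptide of the inner leaf tissue that promotes stomata, stood at 7.24 and 8.25 in mp and 4.71 and 4.75 in GR-bdl (3.02 ± 0.28). SPCH, the factor that starts the stomatal lineage, was called at 0.58 ± 0.12 but not without GR-bdl array 2 (0.0583), nor after centring on the hybridization controls (0.121). YAB5 and YAB3, factors of the lower leaf side, stood at 7.77 and 8.03 and at 8.75 and 8.76 in mp, and at 6.22 and 6.17 and at 7.77 and 7.70 in GR-bdl, rises of 1.71 ± 0.13 and 1.02 ± 0.14. Both belong to a family of 6 measured NGA and YABBY leaf factors, of which 4 rose, 1 fell and 1 was not called. Under the centring on hybridization controls 2 of the 6 rose and 2 fell. The decrease was that of NGA1, at 3.36 and 3.42 in mp and 4.18 and 4.16 in GR-bdl (−0.78 ± 0.10). PHV, a factor of the upper leaf side, was not called (−0.44 ± 0.21). It was called lower in the fit of the 4 arrays alone (limma adjusted p = 0.0464) and after centring on the hybridization controls (0.0202).

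Lists of stress and nutrient genes split among their members. Of 4 measured cold and dehydration genes, COR15B, which encodes a chloroplast protein that guards membranes in the cold, stood at 10.04 and 9.80 in mp and 6.03 and 6.06 in GR-bdl (3.88 ± 0.13), and COR15A, its neighbour copy, rose by 3.78 ± 0.18. The dehydrin genes of the same list fell, with LTI30 at 7.35 and 7.36 in mp and 10.65 and 10.84 in GR-bdl (−3.39 ± 0.12) and COR47 at −0.73 ± 0.13. Of 4 iron uptake genes, AT3G13610, annotated as F6'H1, an enzyme of coumarin synthesis in roots, stood at 2.82 and 3.14 in mp and 8.97 and 9.10 in GR-bdl (−6.06 ± 0.14). PYE, a transcription factor gene of the iron-deficiency response, went the other way, at 8.25 and 8.59 in mp and 5.07 and 5.29 in GR-bdl (3.24 ± 0.16), and BHLH101 rose by 0.98 ± 0.14 within the low end.

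Among 8 glucosinolate genes 3 fell (37.5%), 2 rose (25%) and 3 were not called. BCAT4, which opens the chain elongation of methionine, stood at 3.37 and 3.12 in mp and 8.21 and 8.48 in GR-bdl (−5.10 ± 0.16). GTR1 and GTR2, which encode importers that load glucosinolates into the phloem, went apart, with 7.77 and 7.90 in mp and 5.82 and 5.91 in GR-bdl for GTR1 (1.97 ± 0.12) and 7.82 and 7.94 in mp and 8.96 and 9.01 in GR-bdl for GTR2 (−1.11 ± 0.16). AOP3, a side-chain gene whose activity is known to differ between accessions, stood at 4.55 and 4.55 in mp and 3.01 and 2.51 in GR-bdl (1.79 ± 0.17). GSTU20 and UGT74B1 were not called (0.23 ± 0.12 and −0.09 ± 0.11).

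Among 14 SWEET sugar transporter genes 4 fell (28.6%), 3 rose (21.4%) and 7 were not called, and 6 fell and 1 rose after centring on the hybridization controls. SWEET17 and SWEET16, which encode vacuolar sugar carriers, stood at 2.61 and 2.32 and at 2.59 and 2.64 in mp, and at 5.39 and 5.48 and at 5.45 and 5.11 in GR-bdl. Without GR-bdl array 1 or 2, 1 SWEET gene was called higher. Of 9 ATG8 genes, which encode the ubiquitin-like tag of autophagosomes, 5 fell (55.6%) and 4 were not called, 8 fell after that centring, and the decreases were led by ATG8B (−1.86 ± 0.15) and APG8A (−1.61 ± 0.14). Of 12 ubiquitin-conjugating enzymes 7 fell (58.3%) and 1 rose, with UBC16 at 4.82 and 5.18 in mp and 8.26 and 8.39 in GR-bdl (−3.32 ± 0.14), but 4 fell without either GR-bdl array. GSTU22, a tau glutathione transferase gene, stood at 3.74 and 4.11 in mp and 8.44 and 8.79 in GR-bdl (−4.69 ± 0.17), and GSTU18 rose by 2.72 ± 0.16, in a family of 11 with 3 rises and 3 falls (27.3% each).

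In 4 further families the shares that rose, from 23.8 to 27.6%, were near that of all genes. Of 29 serine carboxypeptidase-like genes 8 rose (27.6%) and 4 fell (13.8%), but 4 rose and 9 fell after centring on the hybridization controls. Their extremes were scpl41, at 6.56 and 5.92 in mp and 2.41 and 2.21 in GR-bdl (3.93 ± 0.20), and scpl42 (−2.78 ± 0.17). Of 21 beta-glucosidases 5 rose (23.8%) and 4 fell (19.0%), 3 and 5 after that centring, with BGLU40 at 6.71 and 6.74 in mp and 3.80 and 4.32 in GR-bdl. Of 19 CYP71B cytochromes P450 5 rose (26.3%) and 2 fell (10.5%), 4 and 4 after that centring, and CYP71B23 differed most (−2.90 ± 0.20). Of 15 tetraspanins, membrane proteins of cell contacts and vesicles, 4 rose and 4 fell (26.7% each), 2 and 5 after that centring, with TET8 among the decreases (−1.91 ± 0.11). Leaving out 1 array, which calls fewer of all genes, gave no more higher calls in any of these 4 families.

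Small secreted proteins went in both directions. Of 13 defensin and defensin-like genes 4 rose and 4 fell (30.8% each), 2 and 4 after centring on the hybridization controls. Of 19 genes on a list of RALF and CLE peptides, which also holds STOMAGEN, 3 rose and 3 fell (15.8% each), 3 and 5 after that centring. PDF2.5, a defensin gene, stood at 2.68 and 2.44 in mp and 7.69 and 7.87 in GR-bdl (−5.22 ± 0.23), while PDF1.4 and LCR67 of the same list rose by 1.26 ± 0.15 and 1.10 ± 0.22. STOMAGEN, given above, led the rises of the peptide list, and RALFL32, a peptide gene of the RALF family, fell by 2.15 ± 0.20. Of 14 basic region leucine zipper factors 5 fell (35.7%) and 1 rose (7.14%), 8 and 0 after that centring, and the largest decrease was that of bZIP44, at 5.66 and 5.56 in mp and 8.47 and 8.59 in GR-bdl (−2.92 ± 0.11). Of 7 jacalin lectin and ER body genes 4 rose and 3 were not called, with a rise of NAI1, the factor that drives ER bodies, stress organelles of the seedling epidermis (1.63 ± 0.17). After centring on the hybridization controls 2 rose and 1 fell. RTE1 and EIN3 of ethylene signalling fell by 0.94 ± 0.10 and 0.73 ± 0.12.

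Some groups had few or no calls. None of 9 spindle checkpoint and mitotic kinase genes was called by limma, although 5 of them had an unadjusted p under 0.05. Of these 9 genes 2 were called higher without mp array 1, 3 were called higher after centring on array medians, and 2 higher and 1 lower in the fit of the 4 arrays alone. None of 3 measured jasmonate genes was called by limma, and 0 had an unadjusted p under 0.05. All 3 lay under 4 in both groups, so their lack of a call says little. THI2.1 of them was called lower with repeated quantile normalization (limma adjusted p = 0.0461) and after centring on the hybridization controls (0.0114). Of 4 reference transcripts, AT4G34270 (0.01 ± 0.12) and AT2G28390 (0.15 ± 0.13) were not called, and PEX4 (−0.32 ± 0.11) and AT4G26410 (−0.45 ± 0.12) were, both losing the call without mp array 1, GR-bdl array 1 or GR-bdl array 2. Among genes well above the low end, the steadiest ones not called included AT2G26500, at 12.67 and 12.67 in mp and 12.69 and 12.67 in GR-bdl, and AT5G20290, at 13.44 and 13.46 in mp and 13.49 and 13.49 in GR-bdl.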

How the data were processed

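Total RNA of seedlings was hybridized to ATH1 arrays, 1 per culture. The deposited values are intensity on a linear scale, made with GCRMA by the authors, per the submitters' processing notes, with no version given in the sources used here. Groups came from source labels and the design text. Values were log2-transformed without pseudocount or filter, and 64 control probe sets were left out. Of 22746 probe sets, 13513 were paired with 1 gene, 503 with several and 8730 with none in the annotation used here, and 13436 matched a RefSeq locus (TAIR10.1, names only). A gene is represented by its probe set with the highest mean.

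limma 3.58.1 (R 4.3.3) was fitted with a mean per group over all 6 arrays (3 residual and 5.12 prior degrees of freedom), with Benjamini-Hochberg adjustment over all probe sets and a threshold of 0.05. Errors are limma standard errors, and their precision is limited by the number of arrays. In simulated data, 50 probe sets were changed at each of the sizes 0.5, 1, 2 and 4. Changes of 0.5, 1 and 2 were called in 26%, 98% and 100% of cases, with 11 false calls among 22746 probe sets. In the data 41.5% of probe sets were called, which loosens the Benjamini-Hochberg threshold, so these rates do not carry over to the comparison.

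Named genes are the 12 largest increases and decreases with arrays that did not overlap, up to 5 called and 2 not called members of each list by locus, up to 4 called members of each family and the largest against its majority, 5 steady genes not called with a mean above 8, and MP, BDL and IAA29. The comparison, the 28 lists by locus (97 measured genes, 5 lists with none) and the rule were chosen with earlier results of these data known. Family lists meant to be drawn from gene descriptions could not be applied, because the annotation holds names only, and 30 families set by locus or symbol replaced them after the annotation had been seen. A further family is not reported here. Another 4 lists were chosen after values had been seen. Membership of a locus without a symbol rests on its locus code. Alternatives tried were other scalings, a filter, a pseudocount, a replicate block, other eBayes settings, the 4 arrays alone and leaving out each array. Replicate numbers did not pair the arrays (correlation of deviations −0.04 between mp and GR-bdl). Python 3.11.15, pandas 2.3.3 and matplotlib 3.10.9 were used.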

Additional observations from a re-analysis of the deposited data

How the results depend on the processing

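The counts of probe sets higher and lower in mp (5441 and 3989) became 2644 and 6984 after centring on the hybridization controls, RNA added just before hybridization. With a difference of at least 1, 1083 were higher after that centring, against 1712, and 2572 were lower, against 1784. With log2(value + 16), 1158 were lower by at least 1, against 1784, since that offset shrinks differences at low intensities. The other scalings, the filter, the 4 arrays alone and the eBayes settings kept all 4 counts within 1.5 times of these values. Leaving out each array gave 3633 to 4514 higher and 2968 to 3412 lower, and 1701 to 1765 higher and 1778 to 1816 lower by at least 1. With the replicate block 5308 were higher and 3968 lower. The numbers share no known source. The block moved a count by more than 1.5 times in 6 of 46 lists of at least 3 genes, each time by 1 gene, and PUCHI, SBPASE, PEX4 and YUC4 lost their calls (limma adjusted p = 0.0536 to 0.0666). Such moves were found in 28 of the 46 lists after centring on the hybridization controls, 22 with the filter, 14 with log2(value + 16), 9 with repeated quantile normalization, 5 with the other eBayes settings, 3 with array medians, 3 with the 4 arrays alone and 10 to 20 without 1 array. Of 200 named genes 169 were called. No called gene changed sign in any setting, 24 called genes lost their call in at least 1 setting and 18 genes not called gained one. After centring on the hybridization controls 14 lost and 14 gained a call. With 2 arrays per group, changes of 0.5 on the log2 scale were mostly missed in simulated data. Far fewer probe sets changed there than were called in the data, so that rate does not carry over. Values under 4 on the log2 scale limit the size of a difference.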

Other observations

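ICL led a further look at genes of seed reserves, fat breakdown and the glyoxylate cycle, a list chosen after its value had been seen, so its counts carry no test. Of 8 measured genes 7 were called higher and PAP85, a seed storage protein gene, was not. BETA-VPE, which encodes a processing enzyme of seed storage proteins, stood at 8.12 and 8.31 in mp and 3.38 and 3.60 in GR-bdl (4.72 ± 0.14). SDP1, the lipase gene that opens oil breakdown, stood at 7.53 and 7.95 in mp and 7.04 and 6.47 in GR-bdl (0.98 ± 0.26), and AIM1, of fatty acid beta-oxidation, differed by 0.35 ± 0.11. Oleosin OLEO3 lay near the low end in both groups (4.01 and 3.89 in mp, 3.10 and 3.24 in GR-bdl). Apart from ICL and BETA-VPE all differences were under 1, and 4 genes were called after centring on the hybridization controls and 3 without GR-bdl array 2.

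Genes known from iron-deficient leaves, listed after several had been seen among the increases, were higher in mp at all 8 measured members, with a median of 3.35. AT1G47400 stood at 9.28 and 8.93 in mp and 4.81 and 4.82 in GR-bdl. AT5G05250 stood at 9.47 and 9.28 in mp and 5.87 and 5.53 in GR-bdl, and AT3G56290 at 7.76 and 7.42 in mp and 4.63 and 4.66 in GR-bdl. DEX-treated GR-bdl arrays stood at 4.88 and 4.94 for AT1G47400. PYE and BHLH101, given above, are on both iron lists. All 8 were called under each scaling and without each array. No measure of iron was used here.

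Of 3 measured starch synthesis genes, on a list written after APL3 had been seen, all were higher. APL3 and APL4, which encode large subunits of ADP-glucose pyrophosphorylase, stood at 8.11 and 8.07 and at 5.64 and 5.71 in mp, and at 2.90 and 3.18 and at 2.27 and 2.20 in GR-bdl. SBE2.2, a starch branching enzyme gene, stood at 11.27 and 11.22 in mp and 10.32 and 10.44 in GR-bdl. HYH, a light-signalling factor gene, stood at 7.07 and 6.96 in mp and 3.20 and 3.12 in GR-bdl, and CHIL, which encodes a helper protein of chalcone synthesis, at 8.94 and 9.14 in mp and 6.04 and 6.18 in GR-bdl. These 2 were likewise chosen after their values had been seen. The largest difference of all (9.53) belongs to a probe set that the annotation used here pairs with no gene.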
